A study of Mus musculus with 6 samples.

Results

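The genes described here make, bind and break down retinoic acid, the vitamin A derivative that acts through nuclear receptors. They are the 9 genes Rdh10, Dhrs3, Aldh1a1, Aldh1a2, Aldh1a3, Crabp1, Crabp2, Cyp26a1 and Cyp26b1, chosen by symbol from the 54735 gene symbols in the count tables, and all 9 were found. RNA was sequenced from whole mouse pancreas taken at stage e16.5, in 3 control and 3 RARdn samples. The study asked what retinoic acid signalling within endocrine progenitors does to the making of islet cells. Control samples carried Neurog3:cre alone. RARdn samples carried Neurog3:cre with RARdnfl/fl, and both groups shared a mixed C57Bl6/129SV background. The labels leave RARdn unexplained; the letters commonly stand for a retinoic acid receptor made dominant-negative, which blocks receptor signalling. Neurog3 marks endocrine progenitors, so the driver addresses a small part of the organ, while the RNA came from every cell of it.

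Retinol is first oxidised to retinaldehyde, a reversible step that RDH10 drives forwards and DHRS3 drives back. The ALDH1A enzymes then oxidise retinaldehyde to retinoic acid, which cellular binding proteins hold in the cytosol and CYP26 enzymes break down. In the mouse embryo, Aldh1a2 is the main synthetic enzyme gene of many mesodermal tissues, including mesothelium and pancreatic mesenchyme, and Cyp26a1, Crabp2 and Dhrs3 are themselves textbook targets of the receptors.

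The 6 libraries held 35256531 to 52015498 counts in genes. Reads outside annotated genes were 7.60% to 8.99% of all reads in controls and 2.90% to 5.30% in RARdn libraries. Reads not aligned were 3.26% to 3.41% and 2.33% to 2.54%. Ambiguous reads and the number of genes counted did not overlap between the groups either, while low-quality and multiply aligned reads did. Such differences between libraries cannot be told apart from genotype. Transcripts of Xist, from the inactive X chromosome, were above 10 CPM in 2 of the 3 controls and in none of the RARdn libraries, so sex was not balanced. RARdn 1 stood apart in its summed level of acinar genes, 60379 CPM against 178921 to 320856 CPM in the other 5 libraries. RARdn 1 and 2 stood apart in liver genes, with 1236 and 280 CPM over 7 genes (Ttr left out) against 19.5 to 25.9 CPM in the other 4. Levels are given as CPM, the usual depth-scaled read count, after TMM scaling, which corrects for a few abundant genes taking up a library. In whole tissue, fewer cells of a type and less RNA per cell cannot be told apart. Litters, collection days and batches are not in the labels, and the spread behind each p-value is that between these samples, which may in part be technical.

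Of the 9 genes, 8 had enough counts to be tested, and Aldh1a3 alone passed the test. It was called higher in RARdn pancreas, and none of the 8 tested genes was called lower. The background over all 19070 genes tested was 1.37% called higher and 2.65% called lower at an adjusted p under 0.05 (edgeR's quasi-likelihood test, Benjamini-Hochberg adjustment over all genes). The median log2 fold change of the 8 tested genes was 0.081, beside 0.00051 over all genes tested, and 5 lay above 0 and 3 below. Aldh1a3 was also the only 1 of the 9 whose groups did not overlap, where 27.6% of all genes tested had groups that did not overlap.

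**Figure D1:**
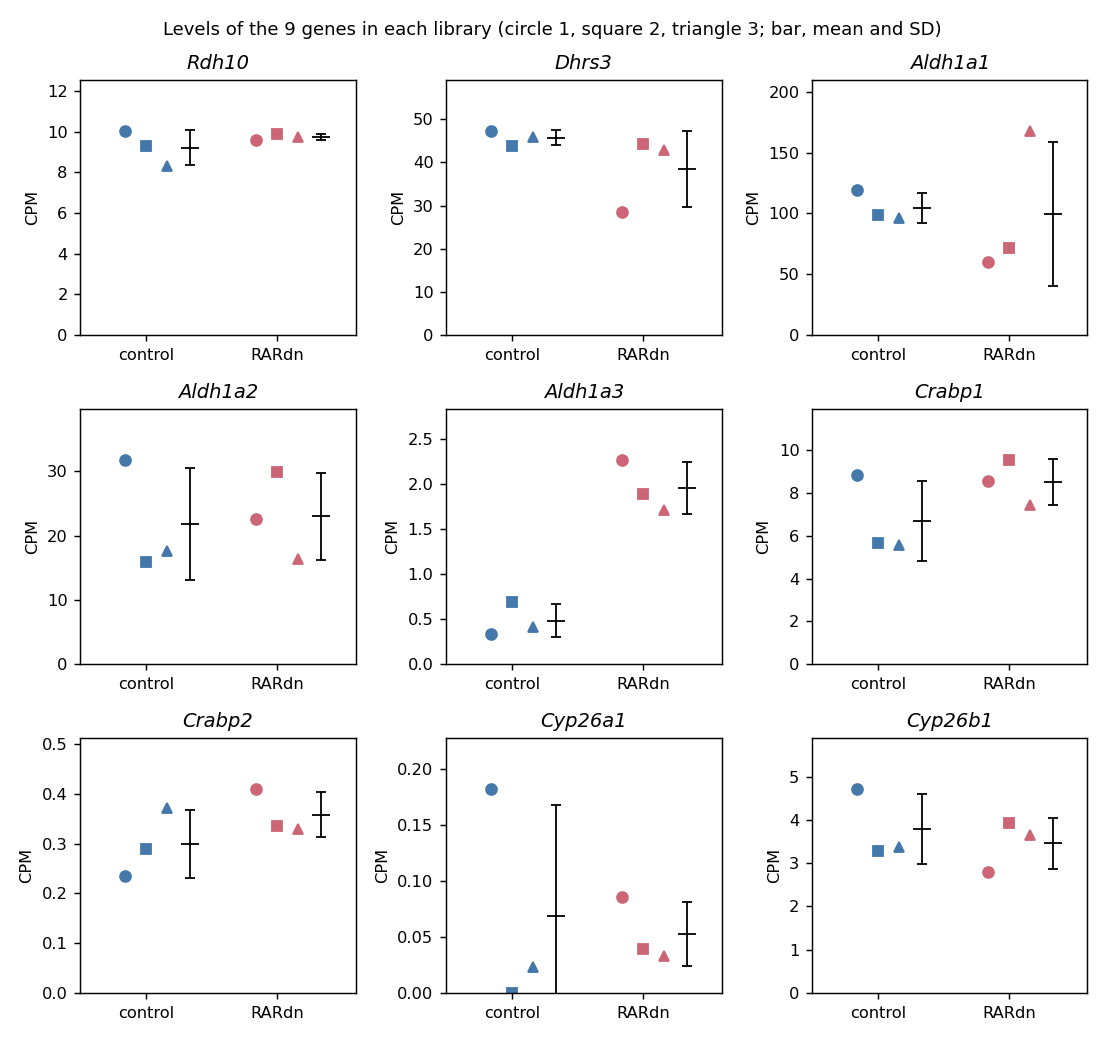
Levels in CPM (vertical axes, linear, from 0) of the 9 genes in the 3 control (blue) and 3 RARdn (red) libraries, with the mean and SD of each group beside the points (the lower bar of Cyp26a1 stops at 0). The groups do not overlap for Aldh1a3, at 0.339 to 0.691 CPM in controls and 1.71 to 2.27 CPM in RARdn libraries, and they overlap for the other 8.

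Levels can be set against each other only per length, here as CPM per kb of annotated exon. In controls Aldh1a1 came first at 21.2 ± 2.50 (SD, n = 3) CPM per kb, followed by Dhrs3 at 15.6 ± 0.589, Aldh1a2 at 9.62 ± 3.86 and Crabp1 at 8.35 ± 2.35. Rdh10 lay at 2.22 ± 0.209 CPM per kb, Cyp26b1 at 0.709 ± 0.151, Crabp2 at 0.226 ± 0.0516, Aldh1a3 at 0.104 ± 0.0400 and Cyp26a1 at 0.0346 ± 0.0502. The libraries of neighbours in this order did not overlap, except those of Aldh1a2 and Crabp1 and those of Aldh1a3 and Cyp26a1. In RARdn pancreas the 4 most abundant genes overlapped their neighbours among themselves, with Aldh1a1 spread from 12.1 to 34.0015 CPM per kb. Aldh1a3 stood at 0.424 ± 0.0621 CPM per kb there, above Crabp2 at 0.271 ± 0.0342 and below Cyp26b1 at 0.646 ± 0.111, and it overlapped neither.

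**Figure D2:**
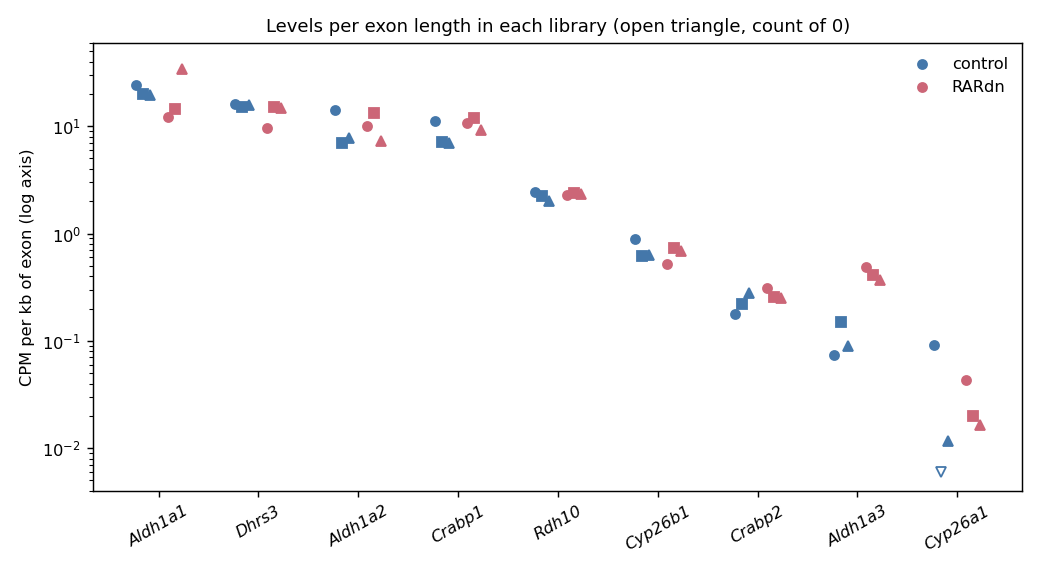
Level per exon length (CPM per kb, log axis) of the 9 genes in each library, ordered by the control mean, with controls in blue, RARdn in red, and circles, squares and triangles for replicates 1, 2 and 3. An open triangle at the foot of the plot marks a count of 0 (Cyp26a1 in control 2), and Aldh1a3 moves from below Crabp2 in controls to above it in RARdn libraries.

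The step from retinol to retinaldehyde was described by 2 genes. Rdh10, the main retinol dehydrogenase gene of the mouse embryo (chromosome 1, 16105774 to 16133734, GRCm38), had levels of 10.05, 9.29 and 8.31 CPM in control 1, 2 and 3, against 9.59, 9.88 and 9.74 CPM in RARdn 1, 2 and 3. The RARdn libraries lay within the range of the controls. Its log2 fold change was 0.080 (SE 0.13, adjusted p = 0.775), and the 95% interval of the RARdn level ran from 0.854 to 1.31 times the control level, the narrowest on the log2 scale among the 8 tested genes.

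Dhrs3, the reductase gene that returns retinaldehyde to retinol (chromosome 4, 144892827 to 144928209), was at 47.3, 43.9 and 46.0 CPM in the controls and at 28.4, 44.4 and 42.8 CPM in RARdn 1, 2 and 3. RARdn 1 alone was far below the controls, and the other 2 were close to the lowest control. The log2 fold change was -0.25 (SE 0.16, adjusted p = 0.399) with an interval of 0.653 to 1.08 times the control level. Without RARdn 1 it was -0.042 (adjusted p = 0.847). RARdn 1 was the library with the lowest summed level of acinar genes and the highest of liver and neuron genes. RARdn 3, with the highest acinar level, was below every control for Dhrs3 too. The part of these cell types in the Dhrs3 level was not tested.

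The 3 retinaldehyde dehydrogenase genes each showed another pattern. Aldh1a3 (chromosome 7, 66390890 to 66427517) was counted 13, 31 and 18 times in control 1, 2 and 3 and 133, 96 and 52 times in RARdn 1, 2 and 3. In CPM these were 0.339, 0.691 and 0.417 in controls and 2.27, 1.89 and 1.71 in RARdn libraries. All RARdn libraries were higher than any control. The exact Poisson 95% interval of the highest control, 0.469 to 0.980 CPM, ended below that of the lowest RARdn library, which began at 1.28 CPM, although such intervals cover counting error only.

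Aldh1a3 was thus 4.04-fold higher in RARdn pancreas (log2 2.01, SE 0.34, edgeR adjusted p = 0.0194), with a 95% interval of 2.34 to 6.95-fold. The group means were 0.482 ± 0.185 and 1.96 ± 0.287 CPM (SD, n = 3). The call did not hold without control 1, 2 or 3 or without RARdn 2 (edgeR adjusted p = 0.0596, 0.0518, 0.0746 and 0.0668), while the log2 fold change stayed between 1.82 and 2.36 without any 1 library. A term for Xist also ended the call, at a log2 fold change of 1.505. Since only control 2 shared the low Xist of the RARdn libraries, that fit in effect sets them against control 2 alone. It therefore cannot show whether sex has a part. Over 15 alternatives the adjusted p ranged from 2.61e-05 with DESeq2 to 0.310. Control 2, which like the RARdn libraries had under 10 CPM of Xist, was the highest control at 0.691 CPM and lay below every RARdn library.

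Cell type markers were set beside Aldh1a3, since the tissue was whole. Aldh1a3 was divided by the summed CPM of each of 18 marker lists, a step chosen after its values were seen. The RARdn libraries were above all controls for 15 lists and overlapped them for the smooth muscle, neuron and liver lists. Groups already apart stay apart over any list that differs less between libraries, so the 15 do not measure the part of cell types. Per 1000 CPM of 12 endocrine genes, Aldh1a3 was at 0.288 to 0.567 CPM in controls and 1.246 to 1.37 CPM in RARdn libraries, and per 1000 CPM of 10 duct and trunk genes at 0.155 to 0.286 and 0.643 to 1.52 CPM. The endocrine list itself was at 1113 to 1218 CPM in controls and 1373 to 1659 CPM in RARdn libraries, with none of its 12 genes called and none at 0 in every library. A separate list of 8 islet hormone genes was at 2925 to 3347 CPM in controls and 2248 to 2983 CPM in RARdn libraries. Of these 8, Ins2, Sst and Pyy were called, 1 higher and 2 lower. Per 1000 CPM of that list, Aldh1a3 was at 0.101 to 0.236 CPM in controls and 0.635 to 0.838 CPM in RARdn libraries.

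The 3 lists that overlapped were higher in at least 1 RARdn library. Smooth muscle genes summed to 85.8 to 125 CPM in controls and 155 to 313 CPM in RARdn libraries, with 3 of 6 called higher (Acta2, Cnn1 and Actg2). Liver genes summed to 379 to 410 CPM in controls and to 1521, 598 and 447 CPM in RARdn 1, 2 and 3, with 2 of 8 called higher (Alb and Ahsg). Ttr, a plasma carrier gene also listed among the retinoid genes, made up 93.8% to 94.9% of the control sums. The other 7 liver genes, a choice made after their values were seen, summed to 19.5 to 25.3 CPM in controls and to 1236, 280 and 25.9 CPM in RARdn 1, 2 and 3. Per 1000 CPM of these 7, Aldh1a3 was at 15.9 to 35.4 CPM in controls, and RARdn 1 and 2 lay below that range at 1.84 and 6.77 CPM and RARdn 3 above it at 66.2 CPM. Neuron genes summed to 24.7 to 42.3 CPM in controls and to 163, 44.7 and 32.0 CPM in RARdn 1, 2 and 3, with none of 5 tested genes called. No gene of the 3 lists was at 0 in every library. Alb, the albumin gene, was at 597, 137 and 3.19 CPM in RARdn 1, 2 and 3, a far wider spread than that of Aldh1a3. The part of these cell types in the Aldh1a3 result was not tested.

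By pattern over the 6 libraries, the genes closest to Aldh1a3 were Tpm3-rs7, Gabbr1 and Zfp949. They had the smallest root mean square difference of centred log2 CPM (0.26, 0.29 and 0.39) among 11063 tested genes whose mean reached 5 CPM. The 9 genes, genes with predicted or accession-like symbols, Xist and genes of the Y chromosome were left out of that search. Gabbr1, a subunit gene of the GABA-B receptor, stood at 33.2, 54.0 and 21.2 CPM in control 1, 2 and 3, and its RARdn levels were 132, 118 and 104 CPM. Like Aldh1a3 it was highest in control 2 among the controls and in RARdn 1 among the RARdn libraries. Tpm3-rs7 is by name a related copy of the tropomyosin gene Tpm3, so reads may be split between them.

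Aldh1a1, the most abundant of the 9 genes (chromosome 19, 20492715 to 20643465), had levels of 119, 98.7 and 96.6 CPM in control 1, 2 and 3. In RARdn 1, 2 and 3 it was at 59.9, 71.6 and 168 CPM. RARdn 1 and 2 lay below every control and RARdn 3 above every control. The means were 105 ± 12.3 and 99.8 ± 59.3 CPM, and the log2 fold change was -0.072 (SE 0.34, edgeR adjusted p = 0.924). The interval of 0.557 to 1.62 times the control level left a wide range of changes undetectable with these samples. Without RARdn 3 the gene was called lower (log2 -0.67, edgeR adjusted p = 0.0194), in a fit that called 7.84% of all genes lower. Reads may be split between Aldh1a1 and Aldh1a7, a closely related copy next to it in the mouse genome.

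Summed epithelial markers were set beside Aldh1a1. The 10 duct and trunk genes summed to 2189, 2416 and 2382 CPM in control 1, 2 and 3 and to 1498, 1757 and 2663 CPM in RARdn 1, 2 and 3, so the 2 RARdn libraries with little Aldh1a1 also had the lowest sums and RARdn 3 the highest. Of the 10 genes, 5 were below every control in both RARdn 1 and 2 (Krt8, Krt18, Muc1, Epcam and Prom1), a count chosen after the values were seen. Sox9, Krt19, Spp1 and Cftr were among those that were not below them in both. The controls did not follow this order, since control 1 had the most Aldh1a1 and the lowest sum among them. The most abundant genes of the list, Krt18 and Krt8, keratin genes of simple epithelia, were at 291 and 316 CPM in RARdn 1, at 353 and 293 CPM in RARdn 2 and at 619 and 555 CPM in RARdn 3. Spp1, the osteopontin gene, was at 300.1, 474 and 491 CPM in RARdn 1, 2 and 3 against 289 to 303 CPM in controls. Exons of Krt8, Cftr and Prom1 each overlap those of a noncoding gene on the other strand, so their counts are uncertain. Those of Spp1 overlap a gene on the same strand, so its counts are uncertain too. None of the 10 was called and none was at 0 in every library. Acinar genes summed to 60379, 231263 and 320856 CPM in RARdn 1, 2 and 3 and to 178921 to 195644 CPM in controls, with none of 30 called. The part of either cell type in the Aldh1a1 values was not tested.

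Aldh1a2 (chromosome 9, 71215789 to 71296243) had levels of 31.8, 15.9 and 17.6 CPM in control 1, 2 and 3, against 22.6, 29.9 and 16.4 CPM in RARdn 1, 2 and 3. The groups overlapped throughout, with 1 high control and 1 high RARdn library. Its log2 fold change was 0.082 (SE 0.29, edgeR adjusted p = 0.898), with an interval of 0.670 to 1.67 times the control level.

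Summed mesothelial markers were set beside Aldh1a2. The 10 mesothelium genes summed to 266, 170 and 181 CPM in control 1, 2 and 3 and to 177, 290 and 184 CPM in RARdn 1, 2 and 3. Control 1 and RARdn 2, the 2 libraries highest in Aldh1a2, also had the 2 highest sums. Of the 10 genes, 6 had these 2 libraries highest, an order chosen for counting after the values were seen. The other 4 did not (Msln, Krt19, Muc16 and Tcf21), and Krt19, the most abundant, is on the duct list too. Upk3b, a uroplakin gene that marks mesothelium, was at 56.3 and 80.4 CPM in those 2 and at 28.3 to 41.1 CPM in the other 4. For Krt19, a keratin gene, the levels of control 1, 2 and 3 were 89.4, 76.8 and 71.9 CPM, with 53.9, 73.5 and 82.4 CPM for RARdn 1, 2 and 3. None of these 10 was called and none was at 0 in every library. Per 1000 CPM of this list, Aldh1a2 spanned 93.2 to 120 CPM in controls and 89.1 to 128 CPM in RARdn libraries, a narrower range, relative to its size, than that of its own level. RARdn 2 also had the highest sum of the 10 mesenchyme genes, at 9572 CPM. Control 1 was below every RARdn library for that list, at 6895 CPM against 8470 to 9572 CPM. Per 1000 CPM of the mesenchyme list, Aldh1a2 spanned 3.05 to 4.61 CPM in controls and 1.87 to 3.13 CPM in RARdn libraries. The part of the mesothelium or the mesenchyme in the Aldh1a2 values was not tested.

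**Figure D3:**
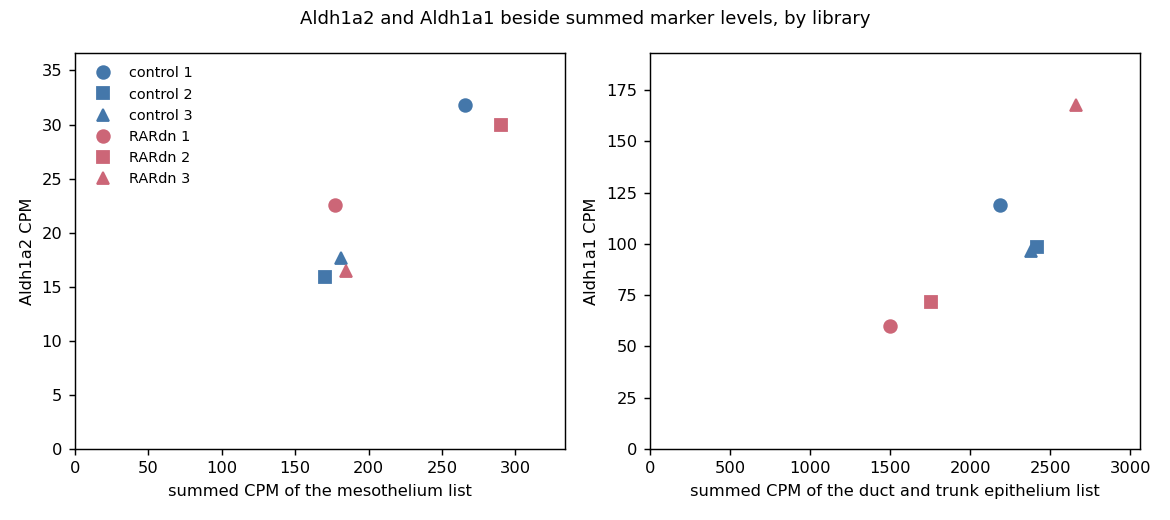
Left, Aldh1a2 (CPM) against the summed CPM of 10 mesothelium genes, and right, Aldh1a1 (CPM) against the summed CPM of 10 duct and trunk genes, with 1 point for each of the 6 libraries (linear axes from 0, controls blue, RARdn red). Control 1 and RARdn 2 are highest on both axes at left, and RARdn 1 and 2 are lowest and RARdn 3 highest on both at right.

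Within the family, the shares of Aldh1a1 and Aldh1a2 were spread more widely over the RARdn libraries than over the controls. Per length, Aldh1a1 made up 63.0% to 73.6% of the summed ALDH1A level in controls and 53.6%, 51.5% and 81.7% in RARdn 1, 2 and 3. Aldh1a2 made up 25.8% to 36.8% in controls and 44.2%, 47.0% and 17.4% in RARdn 1, 2 and 3. Aldh1a3 remained the least abundant, at 0.192% to 0.551% of the sum in controls and 0.891% to 2.18% in RARdn libraries. On the log2 scale, the ratio of Aldh1a1 to Aldh1a3 counts went from 7.78 ± 0.632 in controls to 5.52 ± 0.976 in RARdn libraries, and that of Aldh1a2 to Aldh1a3 from 5.45 ± 1.001 to 3.51 ± 0.403. In both, every RARdn library lay below every control, with a 2-sided exact permutation p of 0.1, which is the lowest value that 3 against 3 can reach (0.25 adjusted over 5 ratios). Both ratios contain Aldh1a3, whose groups were already apart, so they are no further result beside its own. The ratio of Aldh1a1 to Aldh1a2 overlapped, at 2.33 ± 0.382 and 2.005 ± 1.17 (exact permutation p = 0.8).

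The binding proteins shield retinoic acid in the cytosol, and CRABP2 also hands it to the receptors. Crabp1 (chromosome 9, 54764748 to 54773110) had levels of 8.87, 5.66 and 5.56 CPM in control 1, 2 and 3, against 8.56, 9.57 and 7.44 CPM in RARdn 1, 2 and 3. Control 1 lay among the RARdn libraries, and the other controls lay below all of them. The log2 fold change was 0.35 (SE 0.21, edgeR adjusted p = 0.372), with an interval of 0.909 to 1.79 times the control level. Without control 1 it was 0.61 (edgeR adjusted p = 0.138).

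Control 1 had the highest level among the controls for all of the 9 genes but Aldh1a3 and Crabp2. Mesenchyme genes summed to 6895, 5102 and 5791 CPM in control 1, 2 and 3 and to 8470, 9572 and 8803 CPM in RARdn 1, 2 and 3, with 1 of 10 called higher (Lum, a proteoglycan gene) and none at 0 in every library. Much of these sums was collagen, with Col1a1, Col1a2 and Col3a1 at 2036, 1403 and 2430 CPM in control 1. Of the 10 genes, 8 had log2 fold changes above 0 and 2 below, Barx1 (-0.52) and Nkx3-2 (-0.13). RARdn 2 was highest for both Crabp1 and this list. Control 1, the second highest library for Crabp1, was below every RARdn library for the list, and the orders of control 2 and 3 and of RARdn 1 and 3 were opposite. The part of the mesenchyme in the Crabp1 values was not tested.

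Crabp2 (chromosome 3, 87948666 to 87953376) was counted 9, 13 and 16 times in the controls and 24, 17 and 10 times in RARdn 1, 2 and 3, or 0.235, 0.290 and 0.370 CPM and 0.410, 0.335 and 0.329 CPM. The groups overlapped. Its log2 fold change of 0.27 had an SE of 0.40 (edgeR adjusted p = 0.740), and the interval of 0.641 to 2.26 times the control level shows how little so few counts can resolve. On the log2 scale the ratio of Crabp1 to Crabp2 counts was 4.42 ± 0.669 in controls and 4.53 ± 0.234 in RARdn libraries (exact permutation p = 0.8).

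CYP26A1 oxidises retinoic acid to inactive products, and its gene is a textbook readout of the receptors because they bind close to its start. The sequence before the Cyp26a1 start is shown for that reason, from RefSeq (GRCm38.p6, chr19:37697558-37697797, plus strand, 240 bases up to the base before the GENCODE start). Capitals mark a pair of half-sites in the same direction 5 bases apart, the spacing favoured by retinoic acid receptors, which lies on the minus strand and ends 6 bases before that start.
Cyp26a1: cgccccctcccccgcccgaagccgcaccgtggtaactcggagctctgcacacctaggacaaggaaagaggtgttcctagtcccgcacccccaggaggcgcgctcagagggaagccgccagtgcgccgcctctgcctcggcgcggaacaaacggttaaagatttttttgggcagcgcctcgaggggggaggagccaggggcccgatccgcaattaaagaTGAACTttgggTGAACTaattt
Read on the minus strand the repeat is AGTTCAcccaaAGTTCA. The half-sites searched were AGGTCA (or GGGTCA) and AGTTCA (or GGTTCA), on both strands, in windows from 250 bases before to 50 after each RefSeq start. Such a repeat was in 32 of 32851 windows (0.0974%). RefSeq windows were at hand for 6 of the 9 genes, with Aldh1a3, Rdh10 and Crabp2 having none, and among their 9 windows only that of Cyp26a1 held the repeat. A match is a description of the letters and not of binding.

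Cyp26a1 (chromosome 19, 37697798 to 37701536) was counted 7, 0 and 1 times in control 1, 2 and 3 and 5, 2 and 1 times in RARdn 1, 2 and 3. Few reads were thus counted in either group. Each group summed to 8 counts, with an exact Poisson 95% interval of 3.45 to 15.8, and the count of 0 in control 2 allows up to 0.0668 CPM by the limit of 3 counts, or 0.0822 CPM by the exact Poisson interval. The gene did not pass the filter on low counts, and no change in it was detectable at this depth. Tested without that filter, it was not called by edgeR (log2 -0.23, adjusted p = 0.941).

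Cyp26b1, the gene of the second enzyme of this kind (chromosome 6, 84571414 to 84593908), was at 4.72, 3.27 and 3.38 CPM in the controls and 2.79, 3.93 and 3.65 CPM in RARdn 1, 2 and 3. The groups overlapped, and the log2 fold change was -0.14 (SE 0.23, edgeR adjusted p = 0.779), with an interval of 0.630 to 1.32 times the control level. Counts of Cyp26b1 summed to 474 in controls and 473 in RARdn libraries, so nearly all CYP26 reads in both groups were its own. The log2 ratio of Cyp26a1 to Cyp26b1 counts was -6.47 ± 1.81 and -5.81 ± 0.795 (exact permutation p = 0.6).

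Other genes of the pathway were listed by function, with earlier results of these data known. They were carriers, stores and further dehydrogenases of retinol, the remaining CYP26 gene and the receptors. Of 34, 26 were tested, 4 were called higher and none lower, and the median log2 fold change was 0.17. Over all genes tested, 1.37% were called higher and 2.65% lower. The 4 were Stra6, the receptor for retinol-binding protein (log2 2.93), Rbp4, that protein's gene (0.87), and the receptor genes Rara (0.48) and Rarg (0.51), with edgeR adjusted p = 0.0418, 0.0279, 0.0256 and 0.0438. Reads of the RARdn allele, whose sequence is not in the labels, cannot be told apart from those of the receptor genes. Control levels of Stra6 were 9.16, 5.68 and 7.85 CPM, against 15.7, 40.3 and 117 CPM in RARdn 1, 2 and 3, so RARdn 3 was far the highest. Without RARdn 3 its log2 fold change was 1.89 (edgeR adjusted p = 0.0200), and limma-voom did not call it (adjusted p = 0.104). None of the 4 was called without control 1, 2 or 3 or without RARdn 2.

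**Figure D4:**
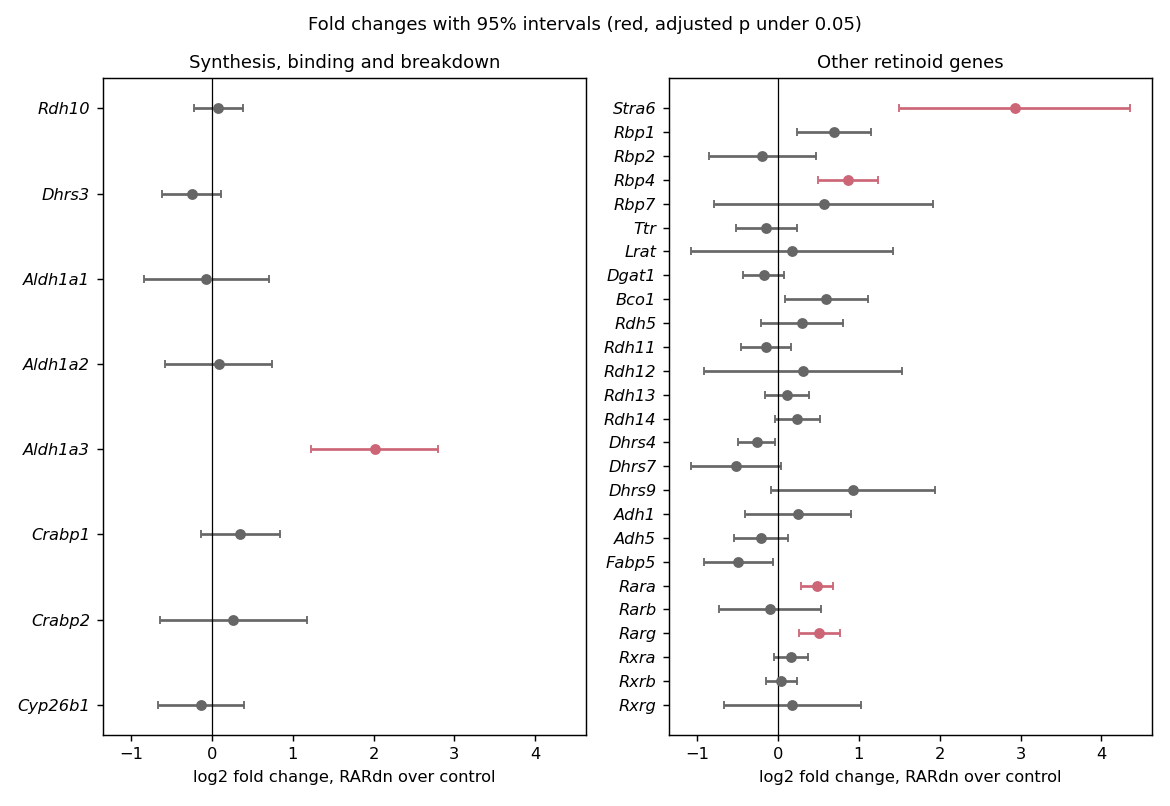
Log2 fold change of RARdn over control (horizontal axis) with its 95% interval for the 8 tested genes of synthesis, binding and breakdown (left) and the 26 other tested retinoid genes (right), with genes called at an adjusted p under 0.05 in red. Aldh1a3 at left and Stra6, Rbp4, Rara and Rarg at right are called, all above 0.

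The 3 most abundant of these other genes had log2 fold changes below 0. Fabp5, whose protein can carry retinoic acid to another nuclear receptor and which has processed pseudogenes that may share its reads, had control levels of 325, 333 and 357 CPM and levels of 174, 281 and 268 CPM in RARdn 1, 2 and 3. Its groups did not overlap, and it did not pass the test (log2 -0.49, SE 0.19, edgeR adjusted p = 0.170). Ttr, the plasma partner of retinol-binding protein, had a log2 fold change of -0.14 (adjusted p = 0.659) and the dehydrogenase family gene Dhrs7 of -0.52 (adjusted p = 0.250).

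Of 15 textbook targets of retinoic acid outside the 9 genes, 12 were tested, 1 was called higher (Stra6) and none lower, and the median log2 fold change was 0.094. The most abundant were the homeobox genes Meis2 (log2 0.030, edgeR adjusted p = 0.903) and Meis1 (-0.035, adjusted p = 0.898), and the transglutaminase gene Tgm2 (-0.0080, adjusted p = 0.974). Exons of Meis1 and Tgm2 overlap those of genes on the other strand, so their counts are uncertain without the strand setting. Those of Meis1 also overlap a gene on the same strand, which that setting would not resolve. No exon of the 9 genes of synthesis, binding and breakdown overlaps another annotated gene.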

How the data were processed

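The authors deposited raw read counts per gene symbol, 1 table per sample, in the layout of HTSeq, with 5 summary lines. The builds mm10 and GRCm38 and the tools HISAT2, HTSeq, DESeq2, FastQC, cutadapt and bedtools are named in the submitters' processing notes. For versions, annotation and strand setting, nothing is given in the sources used here. The summary lines, 25.4% to 31.5% of reads, were left out. RARdn was compared with control in edgeR 4.0.16 under R 4.3.3 (filterByExpr, TMM with factors of 0.862 to 1.22, glmQLFit and glmQLFTest, 2-sided, genotype as the only term), adjusted by Benjamini-Hochberg over 19070 genes. Standard errors were worked back from the F statistic. Positions and exon lengths came from GENCODE M21 (GRCm38). Ratios of counts had 0.5 added. Alternatives included DESeq2 1.42.0, limma-voom (limma 3.58.1), other scalings and filters, a term for Xist, a replicate block and leaving out each library. The test was also run on simulated data, drawn from 1 mean profile without outlier libraries or sex imbalance. That run therefore does not cover the differences between libraries described above. The 9 genes and all lists were chosen with earlier results of these data known. The 9 genes were always named, with the called and 3 most abundant genes of the 2 further retinoid lists and the 3 closest patterns. Where a marker list is discussed, 2 or more of its genes were named, except for the endocrine, neuron and acinar lists, of which none was.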

Additional observations from a re-analysis of the deposited data

How the results depend on the processing

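Aldh1a3 was above 0 under all 15 alternatives and kept its call under 10. With the Xist term its log2 fold change was 1.505, that of Aldh1a1 0.013 and that of Cyp26b1 0.075 (both turned), and 0 of the 9 genes, 0 other retinoid genes and 5 genes higher and 56 lower in all were called. Genes called higher and lower numbered 262 and 505 in the reported fit, 1123 and 1223 without a filter on low counts, 77 and 140 with at least 1 CPM in 3 libraries, and 1016 and 1260 with DESeq2. With library totals alone 125 were called higher. Other retinoid genes called higher numbered 1 with library totals alone and 1 with at least 1 CPM in 3 libraries. Leaving out each library in turn, 0 to 1 of the 9 genes were called higher and 0 to 1 lower, 0 to 6 other retinoid genes higher and 0 to 3 lower, and 22 to 1404 genes higher and 71 to 1576 lower in all, with the fewest higher without RARdn 2 and the most without RARdn 3. The log2 fold change then ran from -0.67 to 0.23 for Aldh1a1, -0.15 to 0.46 for Aldh1a2, 1.82 to 2.36 for Aldh1a3 and -0.24 to 0.053 for Cyp26b1. The difference in log2 ratio ran from -0.998 to 0.049 for Aldh1a1 over Aldh1a2, -0.21 to 1.598 for Cyp26a1 over Cyp26b1 and -0.17 to 0.48 for Crabp1 over Crabp2. The cause of these changes was not tested. Rdh10, Dhrs3, Crabp1 and Crabp2 kept their direction and stayed uncalled under every alternative that gave them a value; Crabp2 had none with at least 1 CPM in 3 libraries.

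Titles number the samples 1 to 3 in both groups, but same-numbered samples did not deviate together (r = 0.013, -0.014 and 0.13 across genes), and not every library correlated best with its own number. With the replicate block Aldh1a3 had a log2 fold change of 2.04 (edgeR adjusted p = 0.0285), and 321 genes were called higher and 496 lower. Depth limits Cyp26a1, Crabp2 and, in controls, Aldh1a3.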

Other observations

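Aldh8a1, a further retinaldehyde dehydrogenase gene that liver expresses, was singled out after its values were seen. It lay below the filter on low counts and had levels of 0.0522, 0.223 and 0.0232 CPM in control 1, 2 and 3, against 1.42, 0.572 and 0.0329 CPM in RARdn 1, 2 and 3. The RARdn libraries fell in the same order as Alb, at 597, 137 and 3.19 CPM, and the part of liver tissue in these values was not tested.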
